A study of Mus musculus with 24 samples.

Results

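Nutrient uptake by the intestinal epithelium was examined at the level of 80 transporter transcripts in mouse intestinal organoids. The 80 transcripts are all protein-coding genes of 7 solute carrier (Slc) families whose symbol is a family number, the letter a and a member number, and they were found among 45706 Ensembl gene identifiers in the deposited tables. By family there were 7 Slc1 genes (glutamate and neutral amino acids), 12 Slc2 genes (facilitated sugar transport), 11 Slc5 genes (sodium-coupled sugars, vitamins and monocarboxylates), 19 Slc6 genes (neutral amino acids, creatine, taurine and neurotransmitters), 15 Slc7 genes (cationic and large neutral amino acids, cystine), 5 Slc15 genes (peptides) and 11 Slc38 genes (small neutral amino acids, glutamine). Symbols with a further letter, such as Slc5a4a or Slc6a20a, fall outside this definition and are described only as neighbours.

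As background, absorption of sugars and protein digestion products uses pairs of carriers on opposite faces of the enterocyte. At the brush border, SGLT1 (Slc5a1) takes up glucose and galactose with sodium, GLUT5 (Slc2a5) takes up fructose, PEPT1 (Slc15a1) takes up small peptides with protons, and Slc6a19, Slc7a9 and Slc1a1 take up neutral, dibasic and acidic amino acids. At the basolateral face, GLUT2 (Slc2a2) releases sugars, and Slc7a7 and Slc7a8 exchange amino acids with the blood side. GLUT1 (Slc2a1), Slc1a5, Slc7a5, Slc7a1 and Slc38a2 are known as supply routes of growing cells, and Slc7a11 imports cystine for glutathione synthesis. These absorptive carriers are known to be more abundant in the small intestine than in the colon.

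RNA was sequenced from 24 organoid libraries. Organoids are self-renewing cultures of epithelium in a matrix, here of small intestinal (SI) or colonic (COL) origin from C57BL/6N mice. All mice carried the Villin::CreERT2 transgene, which places a 4-hydroxytamoxifen (4-HT)-dependent Cre recombinase under the Villin promoter of intestinal epithelium. The BRAF genotype is heterozygous for the conditional BraffloxV600E allele, p53 for Trp53LSL-R172H, and BRAFp53 for both, so that Cre activity switches on BRAFV600E, a constitutively active kinase, p53R172H, a dominant-negative tumour suppressor mutant, or both. Libraries from cultures given 4-HT for 24 h (0.5 µM for SI, 3.5 µM for COL) are called on, and those given ethanol are called off. RNA was taken on day 8 in SI and on day 3 in COL. Each genotype and tissue was represented by 1 donor culture with 2 off and 2 on libraries, which gives 12 groups of 2 libraries and 6 comparisons (arms) of on with off. The p-values therefore measure the spread between inductions of 1 culture, a difference between genotypes is also one between donors, and a difference between SI and COL responses cannot be told apart from the difference in dose, day and medium.

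Libraries held 51.17 to 78.18 M counts in COL and 44.35 to 68.21 M in SI. Levels are given as counts per 1000000 (CPM) after scaling all libraries together, and 3 counts, the floor used for detection, correspond to 0.0368 to 0.0878 CPM. The transcript Xist, expressed from the inactive X chromosome, reached 6123 to 9743 counts in all p53 and BRAFp53 SI libraries and at most 3 in any COL library, so SI and COL cultures of those genotypes were not treated as pairs from 1 animal. The Y-linked Ddx3y had 0 to 4 counts in those SI libraries, 1378 to 1881 in SI BRAF and 2405 to 4690 in COL. The Y-linked Eif2s3y had 0 to 4, 2147 to 3443 and, in COL BRAF, 0 to 6. Sex-linked transcripts thus differed between SI BRAFp53 and SI BRAF, and between SI and COL for p53 and BRAFp53. A part of donor sex in those comparisons cannot be told apart from the other differences. One library stood apart from its group: SI BRAF on replicate 1 had 770 Xist counts against 8 to 27 in the other SI BRAF libraries, which is 12.2% of the mean level of the other SI cultures. Whether this library holds RNA of another culture was not tested, which bears on every SI BRAF on value given for replicate 1. Counts of called transporters and selected values that use it are also given without it. Without it the calls lost were those of Slc5a8 (adjusted p = 0.0790, edgeR), Slc38a3, Slc2a4 and Slc5a2 in SI BRAF, of Slc5a2 in the BRAFp53 minus BRAF comparison of SI, and of Slc1a5 (adjusted p = 0.0970) and Slc7a15 (adjusted p = 0.0690) in the BRAF comparison of COL with SI, and the other transporters called in these 3 comparisons were called in the same direction. The 5 epithelial markers summed to 4537 to 15657 CPM over all libraries, and the 8 stromal, immune and endothelial markers to 1.29 to 8.92 CPM. Of the 5 epithelial markers 5 were called up in SI BRAF, 4 each in COL BRAF and COL BRAFp53 and 3 in SI BRAFp53. Of all genes, 17.5%, 10.3%, 9.95% and 6.98% rose in these arms, in the same order. The stromal sum was higher in on than in off libraries of every BRAF-bearing arm, with Vim as its largest component, which is also known in epithelial cells, and their part in the results was not tested. Trp53 differed between on and off by 0.94 and 0.76 on the log2 scale in the p53 arms of COL and SI, and by 0.94 and 0.52 in the BRAFp53 arms. Of the colon markers, Car1, a carbonic anhydrase, was at 1328 to 18011 CPM in COL and at 0 to 0.267 CPM in SI, and Hoxb13 was near 0 in both tissues. Gata4, a factor of the proximal intestine, was at 80.1 to 118.5 CPM in SI, at 0.293 to 2.67 CPM in the COL p53 and BRAFp53 cultures and at 32.1 to 49.4 CPM in the COL BRAF culture. Some other markers did not follow the labels. Lyz1 of the small intestine list had 11991 to 134516 counts in COL and 1409 to 7865 in SI, and Defa24 3436 to 25422 and 2832 to 10430. Aqp8 of the colon list had 19 and 0 counts in COL BRAF off and 553 and 378 in SI BRAFp53 off libraries. In off organoids 1 of 5 small intestine markers was higher in COL and 1 in SI, and 3 of 4 colon markers were higher in COL.

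Of the 80 transporters, 55 passed the filter on low counts in COL and 53 in SI, 49 of them in both tissues, 6 in COL only and 4 in SI only, and 21 in neither. In COL 39 were above the floor in all 12 libraries and 11 in none, and in SI the numbers were 39 and 15. Slc7a10, Slc7a12 and Slc7a13, known from brain and kidney, had no count in any library. All tests below refer to the transporters that passed the filter, with edgeR's quasi-likelihood test fitted over all genes and p-values adjusted over all genes (Benjamini-Hochberg, called at 0.05).

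Non-induced COL and SI organoids were compared first. Of the absorptive carriers introduced above, Slc5a1, Slc2a5, Slc2a2, Slc6a19, Slc7a9 and Slc7a8 were higher in SI, Slc15a1 and Slc7a7 were higher there with calls that depended on single cultures, and Slc1a1 did not pass the test. Among the transporters higher in COL was the broad amino acid transporter Slc6a14. These cultures differed in more than region. RNA was taken on different days, the crypt medium described by the study contained Wnt3a and a GSK3 inhibitor for colon only, and Xist was high in 2 of the 3 SI cultures and near 0 in all COL cultures. The part of these in the differences cannot be told apart from that of the tissue. Of 52 transporters tested between 3 COL and 3 SI cultures, 14 were higher in SI and 11 were higher in COL, which is 48.1% called against 29.6% of the 17789 genes tested. Here each culture entered as the sum of its 2 off libraries. Of all genes, 17% were higher in COL and 12.6% in SI. The median difference over the transporters was -0.02 (log2, COL minus SI) and that over all genes 0.08.

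The sodium-glucose carrier Slc5a1 had the highest level per exon length in SI, 390.2 ± 38.01 CPM per kb (SD, n = 3 cultures), and made up 47.8% of the per-length sum over the 80 transporters. In COL it ranked behind Slc6a14 at 68.6 ± 23.8 CPM per kb. Its off levels were 1689 and 1302, 1302 and 1753 and 1907 and 1654 CPM in the SI BRAF, p53 and BRAFp53 cultures and 395 and 383, 263 and 254 and 225 and 171 CPM in the COL cultures. All SI libraries were thus above all COL libraries, and the tissues differed (log2 difference -2.47, SE 0.28, adjusted p = 0.00209). Larger fitted differences were found for the carriers of fructose and of sugar exit. Slc2a5 was at 161 to 309.6 CPM in SI off libraries and 3.15 to 6.50 CPM in COL off libraries (log2 difference -5.46, SE 0.24, adjusted p = 0.000319). Slc2a2 was at 96.3 to 218 CPM in SI and 0.147 to 6.50 CPM in COL (log2 difference -6.07, SE 1.34, adjusted p = 0.0160), where the COL BRAF culture with 6.50 and 6.40 CPM stood apart from the other COL off libraries at 0.147 to 0.483 CPM. It was the same COL culture that had the higher Gata4 level given above. Slc2a7, a further hexose carrier of the intestine, was higher in SI as well (log2 difference -6.07, SE 0.59, adjusted p = 0.00157). The widely expressed glucose carrier Slc2a1 did not pass the test between the tissues (log2 difference 0.76, SE 0.30, adjusted p = 0.1002), and its off levels overlapped, with 64.1 to 112 CPM in SI and 91.5 to 208 CPM in COL.

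Of the amino acid and peptide carriers at the brush border, Slc6a19 was at 94.7 to 210.2 CPM in SI off libraries and 1.23 to 20.7 CPM in COL (log2 difference -3.97, SE 0.73, adjusted p = 0.00874). The dibasic and cystine carrier Slc7a9 was at 59.5 to 99.3 CPM in SI and 9.17 to 18.8 CPM in COL (log2 difference -2.41, SE 0.20, adjusted p = 0.00112). These ranges did not overlap between the tissues. The peptide carrier Slc15a1 was also higher in SI (log2 difference -1.88, SE 0.54, adjusted p = 0.0372), but the SI BRAF culture with 11.4 and 13.04 CPM lay within the COL range of 2.45 to 14.4 CPM, and the call was lost without any of 4 of the 6 cultures (COL BRAF, COL p53, SI p53 or SI BRAFp53). The basolateral exchanger Slc7a8 was at 93.5 to 125 CPM in SI and 2.78 to 15.3 CPM in COL (log2 difference -3.74, SE 0.50, adjusted p = 0.00346). Its partner in basolateral exit, Slc7a7, differed less (log2 difference -0.86, SE 0.26, adjusted p = 0.0460), and this call was lost without any of 4 cultures or with other size factors. The glutamate carrier Slc1a1 did not pass the test (log2 difference -1.22, SE 0.55, adjusted p = 0.134). Further transporters that were higher in SI included Slc5a11, a sodium-coupled inositol carrier (log2 difference -7.23, SE 1.10, adjusted p = 0.00485), and Slc6a3, the dopamine transporter, which had no count in any COL off library and was at 3.15 to 13.9 CPM in SI, at least 192-fold higher against the floor over the summed cultures. Slc6a4, the serotonin transporter, Slc6a6, the taurine transporter, and the amino acid carrier Slc7a15 were higher in SI as well, with log2 differences of -3.68, -0.62 and -3.53, and the calls of Slc6a4 and Slc6a6 were lost without any of 3 cultures (COL BRAFp53, SI p53 or SI BRAFp53).

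The transporters with more transcript in COL were led by Slc6a14, which moves neutral and cationic amino acids with sodium and chloride. It was at 183 and 191, 842 and 883 and 328 and 238 CPM in the COL BRAF, p53 and BRAFp53 off libraries, and in SI it had 3 and 9 counts in the BRAF off libraries and 0 in the others (log2 difference 13.53, SE 1.28, adjusted p = 0.00145). The fitted size of this difference was 18.84 without the SI BRAF culture, since the other SI libraries are at 0, and is not a precise fold. Per exon length it was the highest transporter of COL with 129 ± 106.4 CPM per kb (SD, n = 3 cultures), 29.0% of the sum over the 80 transporters, with the p53 culture above the other cultures. The inositol carrier Slc2a13 was at 3.52 to 6.15 CPM in COL off libraries and 0 to 0.0873 CPM in SI (log2 difference 7.83, SE 1.06, adjusted p = 0.00348). That difference was 12.40 without the SI BRAF culture, so its size rests on the few counts of Slc2a13 in that culture. Slc2a10 and Slc2a6, members of the GLUT family found mainly inside cells, had log2 differences of 4.07 and 4.59, higher in COL, with levels of 0.575 to 5.92 and 0.476 to 11.3 CPM in COL and 0 to 0.402 and 0 to 0.576 CPM in SI. The call of Slc2a6 was lost with the genotype as a block and without any of 3 cultures (COL p53, SI p53 or SI BRAFp53). The cystine importer Slc7a11 was at 14.9 to 21.9 CPM in COL off libraries and 1.99 to 5.65 CPM in SI (log2 difference 2.40, SE 0.26, adjusted p = 0.00204). Alanine-serine carrier Slc1a4 and the inositol carrier Slc5a3 were higher in COL as well, with log2 differences of 1.84 and 2.16. Among the growth-related carriers, Slc1a5, Slc7a5, Slc7a1 and Slc38a2 had differences of 0.55, 0.34, -0.17 and 0.57, of which none passed the test.

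**Figure D1:**
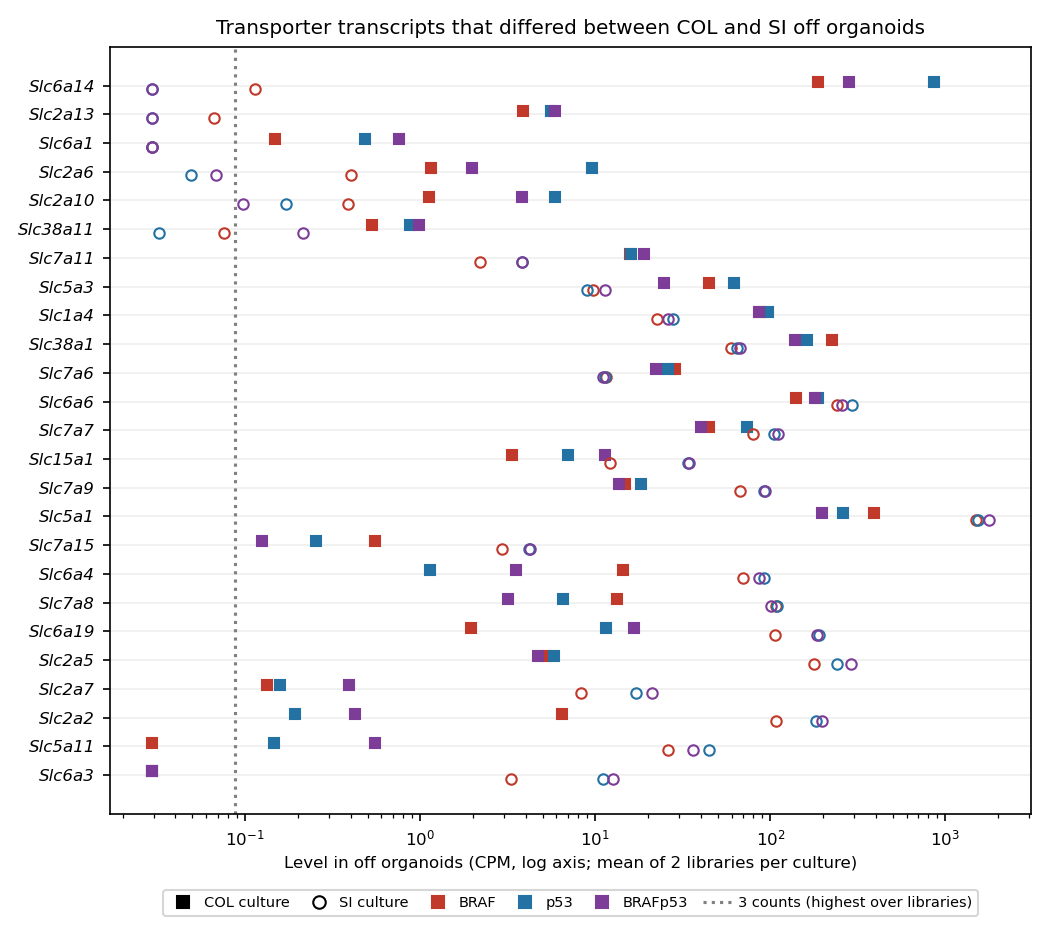
Level in off organoids (CPM, log axis, mean of 2 libraries per culture) of the 25 transporters that differed between COL (filled squares) and SI (open circles), coloured by genotype. Values at or near 0 are drawn at 1 common position left of the dotted floor line. Slc6a14 and Slc2a13 at the top and Slc6a3, Slc5a11 and Slc2a2 at the bottom are among the genes with the widest gaps between tissues.

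The sequences upstream of Slc5a1 and Slc6a14, the leading transporter genes of SI and of COL, are shown for context. Both are the 250 bases before the transcript start in RefSeq (GRCm38.p6), written 5′ to 3′ on the strand of the gene, with capitals for a match to an E-box (CACGTG) in Slc5a1 and to an AP-1 site (TGANTCA) in Slc6a14. Slc5a1 spans chromosome 5, 33104219 to 33162870 on the plus strand, and Slc6a14 spans chromosome X, 21714896 to 21742355 on the plus strand (GENCODE M21).
Slc5a1 (chr5:33103969-33104218, plus strand): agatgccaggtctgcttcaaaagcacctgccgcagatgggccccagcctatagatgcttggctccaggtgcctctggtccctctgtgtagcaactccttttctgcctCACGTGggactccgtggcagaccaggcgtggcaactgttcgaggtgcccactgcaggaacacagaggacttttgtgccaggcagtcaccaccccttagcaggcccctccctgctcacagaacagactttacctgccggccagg
Slc6a14 (chrX:21714650-21714899, plus strand): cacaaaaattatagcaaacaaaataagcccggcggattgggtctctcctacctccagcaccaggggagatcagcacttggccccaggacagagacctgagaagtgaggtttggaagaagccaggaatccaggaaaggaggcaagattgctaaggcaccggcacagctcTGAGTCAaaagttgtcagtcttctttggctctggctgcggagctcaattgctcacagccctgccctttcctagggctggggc
The E-box in Slc5a1 begins 143 bases before the start, and the AP-1 match in Slc6a14 begins 82 bases before it. Windows of 300 bases (250 before to 50 after the start) could be matched for 58 of the 80 transporters. On either strand, an E-box was present for 8 of the 58 (13.8%) and for 8.09% of all 27025 genes with a window. An AP-1 match was present for 8 of the 58 (13.8%) and for 8.97% of all genes. The motif of HNF1 had no match in these windows, against 0.074% of all genes, and no match says only that these letters are not in the window.

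Donor cultures of 1 tissue also differed in some transporters before induction. Slc5a8, which carries lactate and short-chain fatty acids and is known from the colon, was at 11.3 and 9.16, 68.1 and 63.4 and 32.7 and 23.1 CPM in the COL BRAF, p53 and BRAFp53 off libraries. In SI it was at 19.9 and 11.1 CPM in the BRAF culture and at 0 to 0.604 CPM in the other cultures. Of the 3 SI cultures, the BRAF culture thus had the highest level. Slc15a2, a peptide carrier named here after its values were seen, was at 10.4 and 10.2 CPM in the COL BRAFp53 off libraries and at 0 and 0.280 CPM in the COL BRAF off libraries. With 1 donor per genotype, these differences cannot be told apart from differences between genotypes.

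Induction was examined next, on against off in each arm. BRAFV600E changed transporter transcripts in both tissues, and with p53R172H alone no transporter passed the test (edgeR). In SI BRAF, 25 transporters rose and 5 fell of 53 tested (56.6% called against 31.7% of the 16856 genes tested, where 17.5% rose and 14.2% fell). The median log2 fold change was 0.70 over the transporters and -0.06 over all genes. Without SI BRAF on replicate 1, 24 rose and 5 fell, of which 23 and 3 were among the calls with it, while Slc38a2 was newly called up and Slc38a1 and Slc7a6 newly called down. In COL BRAF, 10 rose and 9 fell of 55 (34.5% against 19.9% of 18972 genes, where 10.3% rose and 9.61% fell), with a median of -0.05 against -0.01. In COL BRAFp53, 8 rose and 6 fell (25.5% against 17.7%, where 9.95% rose and 7.76% fell), and in SI BRAFp53, 5 rose and 4 fell (17.0% against 11.5%, where 6.98% rose and 4.53% fell). In bulk RNA, a change in the share of a cell type and a change of transcript per cell cannot be told apart, which holds for all on and off comparisons here.

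**Figure D2:**
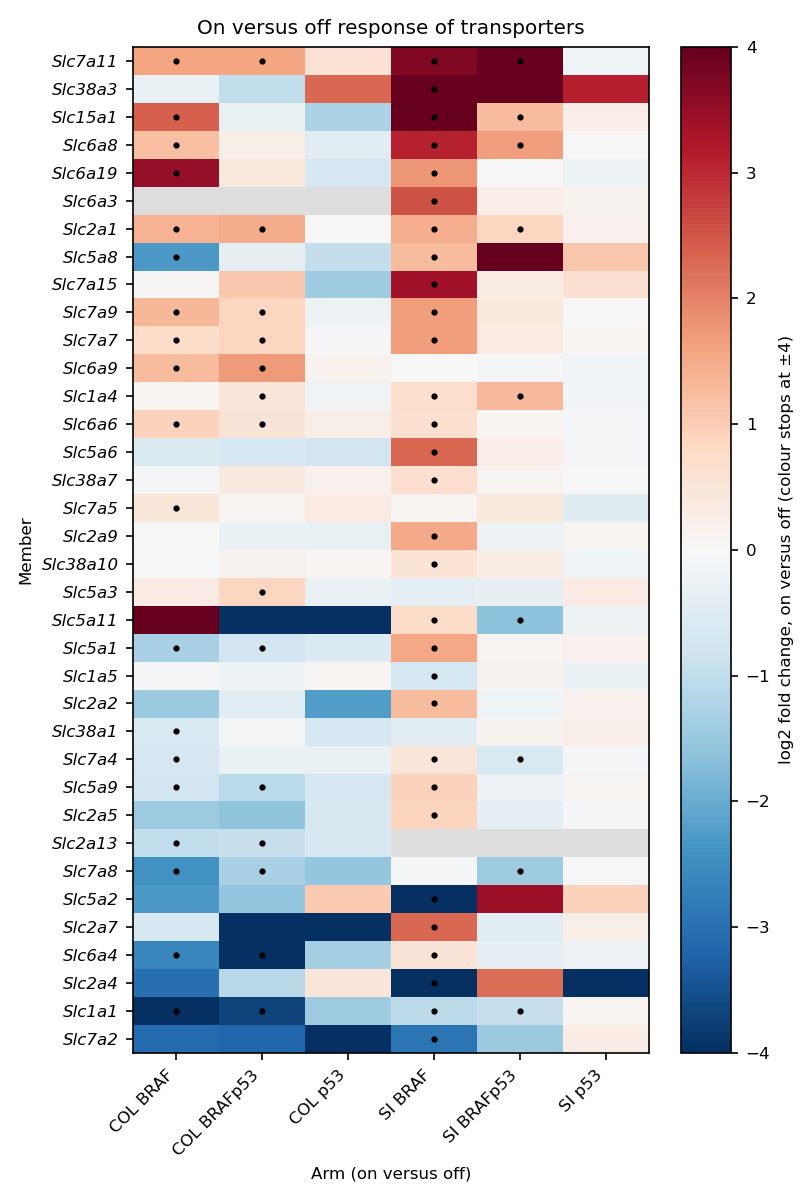
Log2 fold change (colour, on versus off, stopping at 4 in either direction) of the 36 transporters called in at least 1 arm, in the 6 arms; dots mark adjusted p under 0.05 and grey cells were not tested. The SI BRAF column has 25 called rises and 5 called falls, the COL BRAF column 10 and 9, and the p53 columns none.

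In SI BRAF organoids, carriers of sugars, peptides and neutral and dibasic amino acids at the brush border rose, as did the basolateral carriers Slc2a2 and Slc7a7, whereas Slc7a8 did not pass the test and Slc1a1 fell. The largest rise among transporters with an average of at least 1 CPM was that of the peptide carrier Slc15a1, from 11.4 and 13.04 CPM off to 205 and 277 CPM on (log2 fold change 4.25, SE 0.21, adjusted p = 4.39e-08), about 19.0-fold. Of the sugar carriers, Slc5a1 rose from 1689 and 1302 to 4306 and 4706 CPM (log2 fold change 1.55, SE 0.14, adjusted p = 3.72e-06). The on libraries were far above the off libraries in both genes. Slc2a2 rose from 118 and 96.3 to 273 and 261 CPM (log2 fold change 1.27, SE 0.15, adjusted p = 2.53e-05) and Slc2a5 from 193 and 161 to 322 and 349.6 CPM (log2 fold change 0.88, SE 0.14, adjusted p = 0.000456). Slc2a7 rose by 2.31 (SE 0.19) on the log2 scale. Slc2a1, which serves glucose supply rather than absorption, rose from 64.1 and 64.1 to 146 and 216 CPM (log2 fold change 1.45, SE 0.16, adjusted p = 2.34e-05), with the 2 on libraries well apart.

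Among amino acid carriers of SI BRAF organoids, apical Slc6a19 rose from 118 and 94.7 to 321 and 431 CPM (log2 fold change 1.77, SE 0.16, adjusted p = 3.18e-06) and Slc7a9 from 74.1 and 59.5 to 209 and 225 CPM (log2 fold change 1.66, SE 0.13, adjusted p = 1.05e-06). Basolateral Slc7a7 rose from 86.2 and 72.4 to 236 and 285 CPM (log2 fold change 1.67, SE 0.14, adjusted p = 1.75e-06). Of its 3315 exonic bases, 232 overlap the abundant gene Oxa1l on the other strand. The other basolateral exchanger, Slc7a8, had 114 and 101 CPM off and 98.4 and 118 CPM on and overlapped between the groups (log2 fold change -0.04, SE 0.14, adjusted p = 0.857). Carriers outside absorption that rose were the creatine transporter Slc6a8, from 39.1 and 35.5 to 294 and 354 CPM (log2 fold change 3.07, SE 0.14, adjusted p = 2.53e-08), and the amino acid carrier Slc7a15, from 3.31 and 2.53 to 27.6 and 34.0 CPM (log2 fold change 3.36, SE 0.24, adjusted p = 5.90e-07). The cystine importer Slc7a11 rose from 2.18 and 2.20 to 22.0 and 37.0 CPM (log2 fold change 3.70, SE 0.43, adjusted p = 3.20e-05), the largest rise after that of Slc15a1 at an average of at least 1 CPM. Each of these calls held without replicate 1 of the on libraries, with log2 fold changes of 4.46 for Slc15a1, 1.61 for Slc5a1, 1.98 for Slc6a19 and 4.04 for Slc7a11.

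The falls in SI BRAF were fewer. The glutamate carrier Slc1a1 fell from 37.9 and 30.9 to 18.0 and 16.6 CPM (log2 fold change -1.03, SE 0.17, adjusted p = 0.000480) and the glutamine carrier Slc1a5 from 67.5 and 65.6 to 41.0 and 43.3 CPM (log2 fold change -0.70, SE 0.13, adjusted p = 0.000936). The cationic amino acid carrier Slc7a2 fell from 1.71 and 2.55 to 0.467 and 0.0878 CPM (log2 fold change -2.91, SE 0.63, adjusted p = 0.00325), and its log2 fold change without on replicate 1 was -4.61, the fit then resting on the lower of the on libraries. The remaining calls down were Slc2a4 and Slc5a2, both at 0 in the on libraries and at means of 0.366 and 0.151 CPM in the off libraries, at least 4.17-fold and 1.72-fold lower, and both calls were lost with the replicate block and without any of the 4 libraries. They are named, outside the rule for named genes, because the calls down are few. Of the other supply carriers, Slc7a5, Slc7a1 and Slc38a2 had log2 fold changes of 0.10, -0.11 and 0.24 and did not pass the test.

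In COL BRAF organoids, rises and falls were nearly equal in number. Slc6a19 had the largest rise, from 2.69 and 1.23 to 23.6 and 21.5 CPM (log2 fold change 3.52, SE 0.36, adjusted p = 7.80e-05), followed by Slc15a1, from 2.45 and 4.22 to 17.5 and 17.8 CPM (log2 fold change 2.40, SE 0.32, adjusted p = 0.000435). The on levels of Slc6a19 remained below all SI off libraries (94.7 to 210.2 CPM), and those of Slc15a1 lay within the SI off range (11.4 to 38.8 CPM). Slc7a9 rose from 15.1 and 14.4 to 35.9 and 38.5 CPM (log2 fold change 1.33, SE 0.26, adjusted p = 0.00403) and Slc7a7 from 41.6 and 47.6 to 79.2 and 69.4 CPM (log2 fold change 0.73, SE 0.13, adjusted p = 0.00272). Slc6a8 rose from 43.4 and 47.6 to 104 and 104 CPM (log2 fold change 1.19, SE 0.18, adjusted p = 0.000954). Slc2a1 was at 138 and 124 CPM off and 386 and 311 CPM on (log2 fold change 1.41, SE 0.21, adjusted p = 0.000709). The large neutral amino acid carrier Slc7a5 rose slightly, from 27.8 and 27.3 to 37.7 and 39.4 CPM (log2 fold change 0.48, SE 0.13, adjusted p = 0.0213), a call that was lost without any of the 4 libraries.

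The falls in COL BRAF included the sodium-glucose carrier, which had risen in SI. Slc5a1 fell from 395 and 383 to 159 and 157 CPM (log2 fold change -1.30, SE 0.12, adjusted p = 3.89e-05). The steepest fall was that of Slc1a1, from 21.1 and 20.5 to 0.723 and 1.89 CPM (log2 fold change -4.01, SE 0.40, adjusted p = 6.91e-05), about 16.2-fold. Slc6a4, the serotonin transporter of enterocytes, fell from 15 and 13.7 to 1.64 and 3.09 CPM (log2 fold change -2.61, SE 0.31, adjusted p = 0.000211). Basolateral Slc7a8 fell from 15.3 and 11.4 to 2.55 and 2.40 CPM (log2 fold change -2.43, SE 0.32, adjusted p = 0.000391) and Slc5a8 from 11.3 and 9.16 to 3.10 and 0.972 CPM (log2 fold change -2.30, SE 0.40, adjusted p = 0.00197). On and off libraries did not overlap in any of these. Slc2a2 and Slc2a5, already low in COL, had log2 fold changes of -1.48 and -1.44 and did not pass the test. Slc6a14, the leading COL transporter, was at 183 and 191 CPM off and 231 and 162 CPM on (log2 fold change 0.07, SE 0.20, adjusted p = 0.864), and the groups overlapped.

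With p53R172H added to BRAFV600E, the COL response was compared by its members, the 2 arms sharing no library. Of the 14 transporters called in COL BRAFp53, 12 (85.7%) were also called in COL BRAF (63.2% of its calls), 12 of them in the same direction. Over all genes, 50.5% of the COL BRAFp53 calls were also called in COL BRAF, 44.9% of its calls. Of these 1696 genes, 1662 changed in the same direction in both arms, so a shared direction was common to nearly all genes called in both. Slc6a9, a glycine transporter, had the largest rise, from 4.83 and 3.11 to 13.4 and 12.3 CPM (log2 fold change 1.70, SE 0.23, adjusted p = 0.000582). Of its 5141 exonic bases, 1986 overlap genes with few counts. Slc7a7 rose from 43.3 and 37.5 to 76.3 and 68.8 CPM (log2 fold change 0.85, SE 0.13, adjusted p = 0.00139), and the inositol carrier Slc5a3 from 25.9 and 23.3 to 50.8 and 38.9 CPM (log2 fold change 0.87, SE 0.20, adjusted p = 0.0114), which shares part of an exon with the abundant Mrps6 and was lost without off replicate 2 or on replicate 1. Of the falls, Slc6a4 was at 4.03 and 3.01 CPM off and 0.172 and 0.139 CPM on (log2 fold change -4.47, SE 0.38, adjusted p = 3.94e-05), and Slc5a1 at 225 and 171 and 120.5 and 109.7 CPM (log2 fold change -0.78, SE 0.12, adjusted p = 0.00119). Slc7a8 was at 3.59 and 2.78 CPM off and 0.993 and 1.60 CPM on (log2 fold change -1.30, SE 0.32, adjusted p = 0.0169), a call lost without off replicate 1 or on replicate 1. Slc5a9, a further sodium-coupled sugar carrier, fell as well (log2 fold change -1.08). Slc6a19 and Slc15a1, which rose in COL BRAF, did not pass the test here. Slc6a19 was at 20.7 and 12.4 CPM off and 26.0 and 18.1 CPM on, and Slc15a1 at 14.4 and 8.20 and 10.8 and 7.72 CPM, and in both genes the groups overlapped.

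In SI BRAFp53 the call count was 9, against 30 in SI BRAF, and 8 of the 9 (88.9%, and 26.7% of the SI BRAF calls) were called in both arms, of which Slc5a11 and Slc7a4 changed in opposite directions. Over all genes, 71.3% of the SI BRAFp53 calls were also called in SI BRAF, 25.9% of its calls. Of these 1383 genes, 1303 changed in the same direction in both arms. Without SI BRAF on replicate 1 the number of transporters called in both arms was 8 again. Slc7a11 rose from 4.55 and 3.04 to 55.7 and 99.3 CPM (log2 fold change 4.32, SE 0.43, adjusted p = 2.54e-05), the largest fold change in this arm at an average of at least 1 CPM. Slc6a8 rose from 47.9 and 39.3 to 134 and 150.5 CPM (log2 fold change 1.67, SE 0.13, adjusted p = 4.09e-06), Slc1a4 from 28.2 and 24.2 to 66.0 and 65.5 CPM (log2 fold change 1.29, SE 0.18, adjusted p = 0.000361) and Slc15a1 from 37.2 and 31.4 to 76.7 and 89.4 CPM (log2 fold change 1.24, SE 0.19, adjusted p = 0.000763). Of the falls, Slc7a8 was at 97.8 and 103 CPM off and 36.6 and 40.0 CPM on (log2 fold change -1.42, SE 0.15, adjusted p = 3.08e-05) and Slc5a11 at 38.4 and 34.0 and 9.88 and 14.1 CPM (log2 fold change -1.63, SE 0.18, adjusted p = 6.67e-05). The sugar carriers of absorption did not pass the test in this arm, with log2 fold changes of 0.11 for Slc5a1, -0.17 for Slc2a2 and -0.36 for Slc2a5. Slc6a19 was at 191 and 177 CPM off and 174 and 204 CPM on.

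Over the 4 BRAF-bearing arms, Slc7a11 and Slc2a1 rose in every arm and Slc1a1 fell in every arm. With p53R172H alone in COL, Slc1a1 and Slc7a11 moved in the same directions. Their means went from 4.17 to 1.58 CPM and from 15.9 to 24.0 CPM (log2 fold changes -1.43 and 0.57). Both were called with DESeq2 and not with edgeR. The log2 fold changes in SI p53 were 0.11 and -0.16, and that of Slc2a1 in COL p53 was 0.01. Slc7a11 rose from 14.9 and 16.7 to 50.6 and 44.1 CPM in COL BRAF (log2 fold change 1.58, SE 0.17, adjusted p = 0.000112) and from 15.9 and 21.9 to 58.6 and 55.0 CPM in COL BRAFp53 (log2 fold change 1.58, SE 0.17, adjusted p = 0.000139). The off levels of SI were below all COL off levels, and the on levels of SI BRAFp53 (55.7 and 99.3 CPM) overlapped those of COL BRAFp53. Slc2a1 was at 91.5 and 106 CPM off and 326 and 231 CPM on in COL BRAFp53 (log2 fold change 1.498, SE 0.21, adjusted p = 0.000604) and at 112 and 105 and 179 and 225 CPM in SI BRAFp53 (log2 fold change 0.86, SE 0.16, adjusted p = 0.00343). Slc1a1 fell from 8.59 and 8.02 to 0.515 and 0.772 CPM in COL BRAFp53 (log2 fold change -3.70, SE 0.41, adjusted p = 0.000166) and from 20.2 and 20.7 to 12.8 and 9.18 CPM in SI BRAFp53 (log2 fold change -0.94, SE 0.17, adjusted p = 0.00312), the latter lost without on replicate 2. Of the exonic bases of Slc1a1, 2631 of 8257 overlap an antisense gene with low counts. Called up in 3 arms were Slc15a1, Slc1a4, Slc6a8, Slc7a7 and Slc7a9, and the taurine transporter Slc6a6, and called down in 3 arms was Slc7a8. There were 23 tested transporters that passed in none of the 4 arms, among them Slc7a1 and Slc38a2, the cationic and the small neutral amino acid carrier, whose log2 fold changes ran from -0.11 to 0.22 and from 0.09 to 0.32. Of all genes, 11.5% to 31.7% were called per arm. How many of all genes were called in 4, 3 or none of these arms was not counted. The counts of shared calls therefore do not set the transporters apart from other genes.

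**Figure D3:**
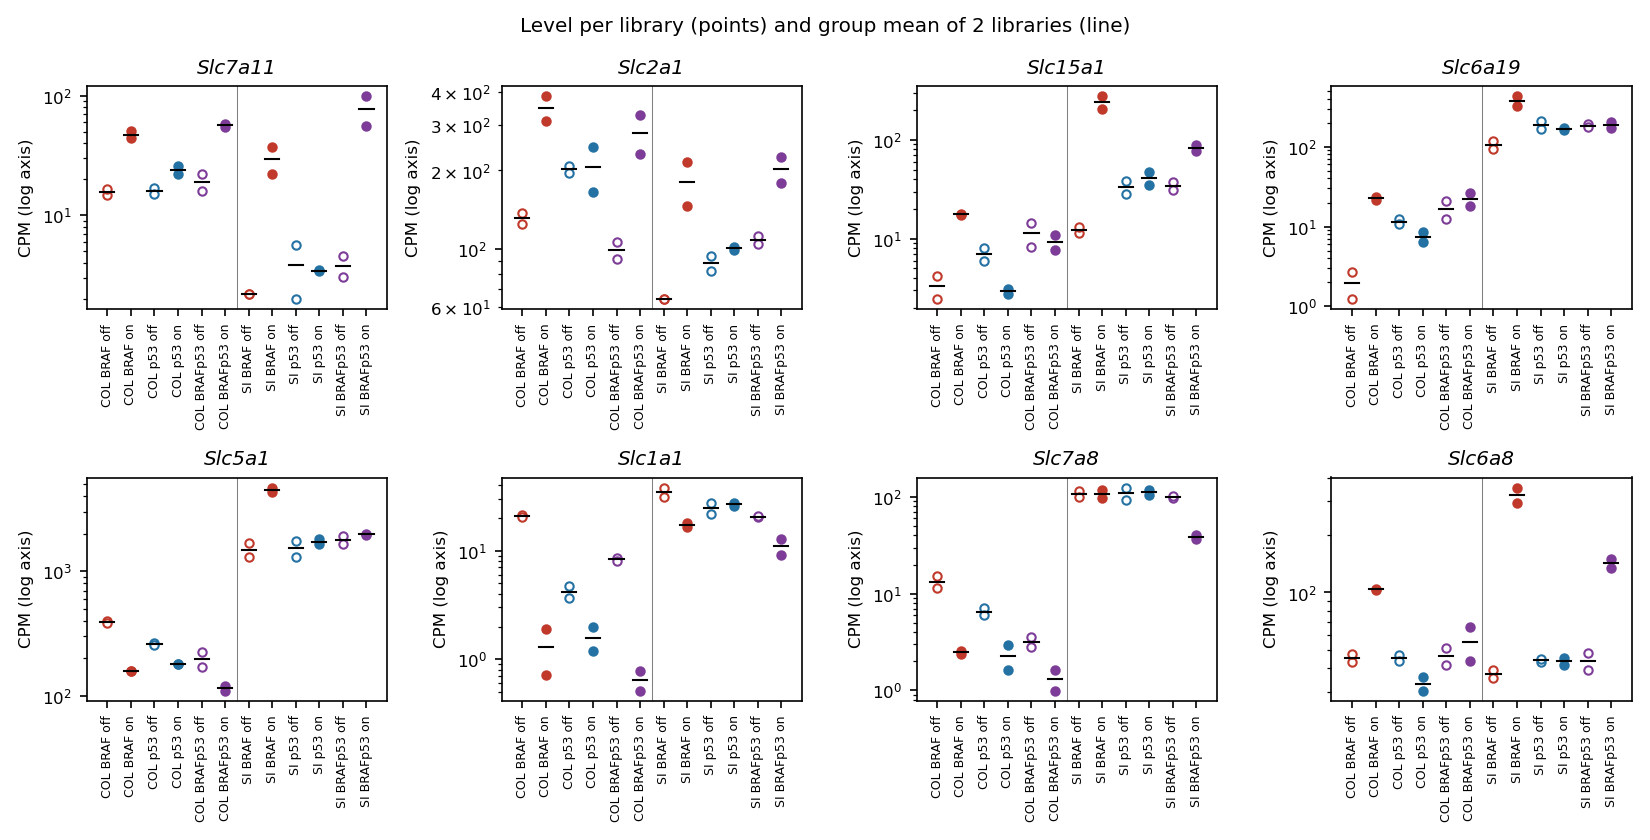
Level of 8 transporters in each of the 24 libraries (CPM, log axis, open points off and filled points on) with the mean of each group of 2 as a line; COL stands left and SI right of the vertical line. Slc7a11 and Slc2a1 rise and Slc1a1 falls in each BRAF-bearing arm, while Slc5a1 falls in COL BRAF and rises in SI BRAF.

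The windows upstream of Slc7a11 and Slc15a1 are printed because these genes had the largest rises in SI BRAF among transporters with an average of at least 1 CPM. They are the 250 bases before the RefSeq start (GRCm38.p6), 5′ to 3′ on the minus strand on which both genes lie. Capitals mark matches to the amino acid response element TGATGNAA, a motif of the transcription factor ATF4, and the window of Slc15a1 holds none of the 4 motifs searched.
Slc7a11 (chr3:50443614-50443863, minus strand): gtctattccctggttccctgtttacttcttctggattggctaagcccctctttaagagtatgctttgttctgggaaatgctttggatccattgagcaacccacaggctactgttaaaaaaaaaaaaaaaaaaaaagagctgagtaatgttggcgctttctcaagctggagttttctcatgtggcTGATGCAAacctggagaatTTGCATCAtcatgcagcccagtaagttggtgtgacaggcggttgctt
Slc15a1 (chr14:121505255-121505504, minus strand): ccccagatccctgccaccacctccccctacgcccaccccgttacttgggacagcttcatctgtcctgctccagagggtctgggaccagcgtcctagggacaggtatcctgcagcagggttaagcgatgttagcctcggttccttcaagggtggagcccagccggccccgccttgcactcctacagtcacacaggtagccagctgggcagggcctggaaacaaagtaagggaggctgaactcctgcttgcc
Slc7a11 (chromosome 3, 49892526 to 50443614) has 2 matches in opposite orientation, TGATGCAA beginning 66 bases and TTGCATCA beginning 47 bases before the start. On either strand this motif was present for 5 of the 58 transporters with a window (8.62%), namely Slc7a11, Slc1a4, Slc7a7, Slc15a5 and Slc6a21, and for 4.51% of all genes. Matches of different motifs shared bases in 0 cases among the transporters. Of these 5, Slc7a11, Slc1a4 and Slc7a7 were called up in 4, 3 and 3 of the BRAF-bearing arms, Slc15a5 was called in none, and Slc6a21 did not pass the filter. Outside these 5, Slc2a1 was called up in 4 arms, and Slc15a1, Slc6a6, Slc6a8 and Slc7a9 were called up in 3. The calls of all genes with this motif were not counted, and a role of the motif was not tested.

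The BRAF response was then compared between tissues in 1 fit of all 24 libraries. Of 60 transporters tested, the COL response was lower than the SI response in 16 and higher in 2 (30.0% called against 10.7% of 19673 genes, of which 7.4% were lower and 3.31% higher). The median difference was -0.71 over the transporters and -0.01 over all genes. Without SI BRAF on replicate 1 there were 15 lower and 1 higher. Slc5a1, which fell in COL and rose in SI, had the smallest adjusted p of the transporters (log2 difference -2.89, SE 0.21, adjusted p = 6.13e-08). Slc6a4 likewise fell in COL and rose from 75.0 and 65.2 to 104 and 102 CPM in SI (log2 difference -3.17, SE 0.29, adjusted p = 1.59e-06). Slc5a8 also did, from 19.9 and 11.1 to 35.9 and 40.4 CPM in SI BRAF (log2 difference -3.60, SE 0.67, adjusted p = 0.00177), although its SI rise was lost with DESeq2 and without any of the 4 libraries. Slc2a2 and Slc2a5 differed by -2.82 and -2.40, the latter lost without replicate 1 of COL BRAF off or on. Slc15a1 and Slc7a11 rose in both tissues, and more in SI (log2 difference -1.89, SE 0.39, adjusted p = 0.00343 and log2 difference -2.17, SE 0.50, adjusted p = 0.00778). Slc1a1 fell in both, and more in COL (log2 difference -3.03, SE 0.42, adjusted p = 0.000122). Slc6a19 was the exception with a larger rise in COL (log2 difference 1.69, SE 0.39, adjusted p = 0.00788), from an off level in the COL BRAF culture that was the lowest of all 6 cultures. The other difference in that direction was Slc1a5 (log2 difference 0.61, SE 0.18, adjusted p = 0.0342), which was lost without any of 7 of the 8 libraries.

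**Figure D4:**
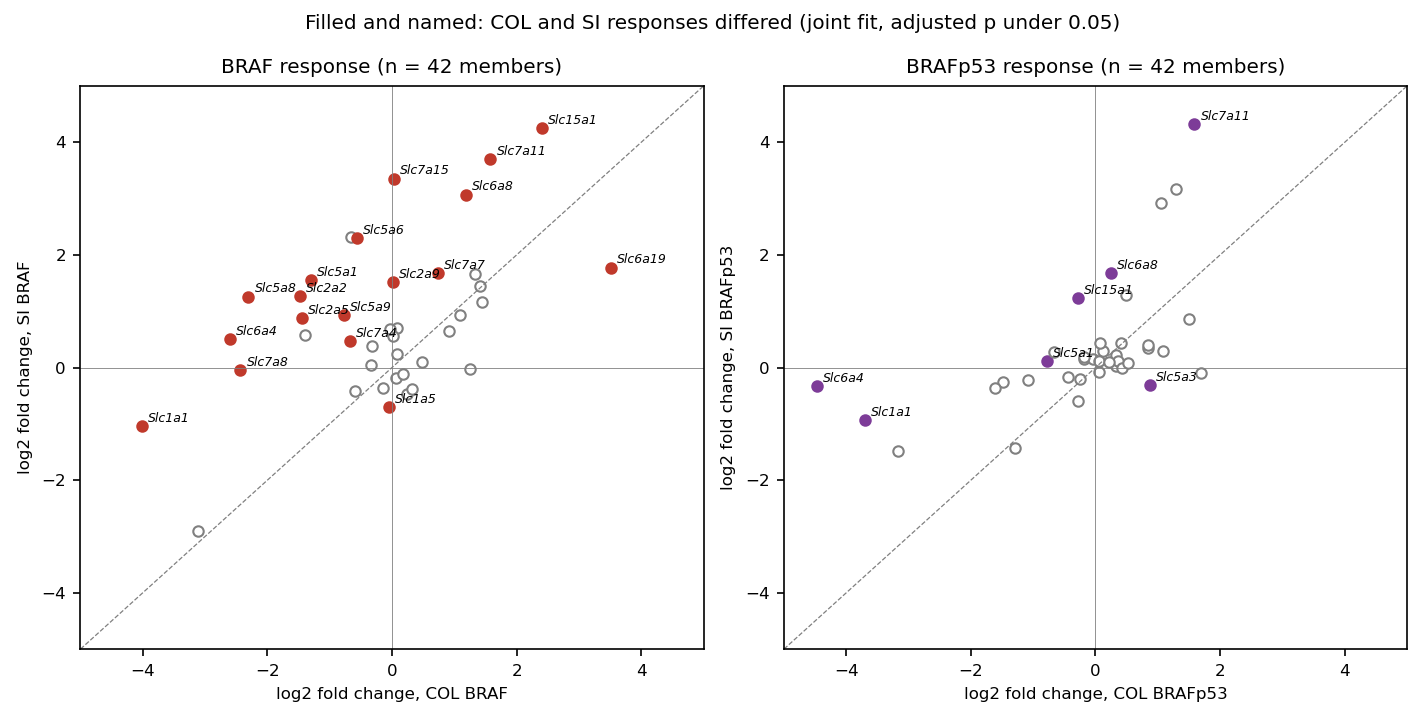
Log2 fold change (on versus off) in COL on the x axis and in SI on the y axis for the 42 transporters with an average level of at least 1 CPM that were tested in both tissues, for BRAF (left) and BRAFp53 (right). Filled points differed between tissues in the joint fit. Most filled points of the BRAF panel lie above the diagonal, and Slc6a19 and Slc1a5 lie below it.

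For the BRAFp53 response, 6 transporters were lower in COL and 1 was higher (11.7% called against 3.52% of all genes, 2.13% lower and 1.39% higher). Slc6a4 (log2 difference -4.18, SE 0.39, adjusted p = 1.66e-05), Slc1a1 (log2 difference -2.81, SE 0.43, adjusted p = 0.00134) and Slc7a11 (log2 difference -2.77, SE 0.48, adjusted p = 0.00363) differed in the same direction as for BRAF. Slc5a1 differed by -0.93 and Slc15a1 by -1.56, and both calls were lost without any of several libraries (4 and 5 of 8). Without COL BRAFp53 off replicate 1 the difference of Slc15a1 was -1.02. Slc5a3 was higher in COL (log2 difference 1.14, SE 0.27, adjusted p = 0.0219) and was lost with limma-voom and without any of 4 of the 8 libraries.

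Whether p53R172H modified the BRAF response was asked by subtracting the BRAF response from the BRAFp53 response within a tissue, which also compares 2 donor cultures. In SI these cultures also differed in Xist and Ddx3y, as given above. In SI the response with p53R172H was lower for 18 transporters and higher for 2 of 53 (37.7% called against 8.2% of 16856 genes, 6.28% lower and 1.93% higher). The median difference was -0.26 over the transporters and 0.03 over all genes, and without SI BRAF on replicate 1 there were 20 lower and 3 higher, with Slc2a1 and Slc6a6 newly called lower and Slc38a1 and Slc7a6 newly called higher. Among the lower responses were those of absorptive carriers, Slc15a1 (log2 difference -3.01, SE 0.27, adjusted p = 4.68e-05), Slc6a19 (log2 difference -1.77, SE 0.22, adjusted p = 0.000454), Slc2a2 (log2 difference -1.44, SE 0.20, adjusted p = 0.000990), Slc5a1 (log2 difference -1.43, SE 0.19, adjusted p = 0.000770), Slc7a9 (log2 difference -1.26, SE 0.18, adjusted p = 0.000990) and Slc2a5 (log2 difference -1.24, SE 0.20, adjusted p = 0.00258). For these genes the on levels of SI BRAFp53 were below those of SI BRAF, for example 2006 and 1948 against 4306 and 4706 CPM of Slc5a1. The off levels of Slc15a1, Slc6a19, Slc2a2, Slc7a9 and Slc2a5 were higher in the SI BRAFp53 culture than in the SI BRAF culture, and those of Slc5a1 overlapped. An example is Slc15a1, with 37.2 and 31.4 against 11.4 and 13.04 CPM. How many of all genes differed in this way was not counted. The part of the off levels in these differences was not tested. The responses of Slc7a11, Slc2a1 and Slc1a1 differed by 0.62, -0.59 and 0.10 and did not pass the test. Slc1a5 was among the 2 with a higher response (log2 difference 0.85, SE 0.18, adjusted p = 0.0113), a call lost without SI BRAFp53 off replicate 1 or on replicate 2, and the other, Slc5a2, lay near the floor and was lost with DESeq2, with the replicate block and without any of 6 of the 8 libraries.

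In COL the same subtraction called 2 transporters, both lower with p53R172H (3.64% against 0.907% of all genes, of which 0.374% were lower and 0.532% higher). They were Slc6a19 (log2 difference -3.10, SE 0.47, adjusted p = 0.0354) and Slc15a1 (log2 difference -2.68, SE 0.44, adjusted p = 0.0404), and both calls were lost without any of 4 of the 8 libraries (COL BRAF off replicate 1, either COL BRAF on replicate or COL BRAFp53 on replicate 2). The off levels of both were higher in the BRAFp53 culture than in the BRAF culture, as given above. These subtractions share no library between tissues, but within a tissue they use the same libraries as the on and off comparisons.

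Induction of p53R172H alone called none of 55 transporters in COL and none of 53 in SI (edgeR), against 0.142% and 0% of all genes. In COL 17 of the 55 had an unadjusted p under 0.05 (30.9%, against 8.34% of all genes), of which 15 were lower in on and 2 were higher, and DESeq2 called 10 (against 1.71% of all genes with DESeq2). Slc7a8 was at 7.12 and 5.96 CPM off and 1.63 and 2.93 CPM on (log2 fold change -1.54, SE 0.31, adjusted p = 0.111), Slc5a1 at 263 and 254 and 181 and 180.3 CPM (log2 fold change -0.54, SE 0.12, adjusted p = 0.128) and Slc15a1 at 5.92 and 7.98 and 2.78 and 3.13 CPM (log2 fold change -1.26, SE 0.32, adjusted p = 0.186). On and off libraries did not overlap in these 3 genes, and the adjusted p was above the threshold with edgeR. In SI 4 of 53 had an unadjusted p under 0.05 (7.55%, against 5.18% of all genes) and DESeq2 called 0 (against 0.386% of all genes), with Slc5a1 at 1302 and 1753 CPM off and 1803 and 1645 CPM on. The p53 response differed between COL and SI for none of 60 transporters (edgeR, against 0.117% of all genes), with 17 at an unadjusted p under 0.05 (28.3%, against 7.79% of all genes) and 7 called with DESeq2 (against 0.823% of all genes).

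Genes that act beside these transporters moved in SI BRAF as well. Of 18 partner and neighbour genes, which include the heavy chains Slc3a1 and Slc3a2 and the carriers with letter suffixes, 15 were tested, and in SI BRAF 11 rose and 0 fell, with a median log2 fold change of 1.37 against -0.06 over all genes (without on replicate 1, 11 rose and 0 fell). Over all genes 17.5% rose and 14.2% fell in that arm. Slc3a1, the heavy chain with which Slc7a9 is known to pair, rose by 2.35, and the scaffold Pdzk1, known to bind transporters, by 2.57 (log2 fold changes). The COL BRAF arm had 1 rise, which was Slc3a1 (log2 fold change 1.76), no more than the 10.3% of all genes that rose there. In COL BRAFp53 1 rose, the heavy chain Slc3a2 of Slc7a5 and Slc7a11 (0.67), and 4 fell, and in SI BRAFp53 2 rose and 3 fell, where 9.95% and 6.98% of all genes rose and 7.76% and 4.53% fell. Neither p53 arm had a call in this list. In off organoids 11 of 15 were higher in SI and 2 in COL, against 12.6% and 17% of all genes.

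Digestive hydrolases were read from a list of 17 genes, most of which are enzymes of the brush border that release sugars, peptides and amino acids. The list also holds Cndp2, a cytosolic dipeptidase, and Tmprss15, the enteropeptidase that activates trypsinogen. Cndp2 is 1 of the rises in SI BRAF and in COL BRAF and 1 of the genes higher in SI off organoids, and Tmprss15 is 1 of the rises in SI BRAFp53. In SI BRAF 14 of 17 rose and 1 fell (17.5% and 14.2% of all genes), with a median of 1.51 against -0.06 over all genes (without on replicate 1, 14 rose and 1 fell), with Anpep, an aminopeptidase, at 3.26 and Sis, the sucrase-isomaltase, at 1.11. In COL BRAF 2 rose and 4 fell of 16, where 10.3% and 9.61% of all genes did, so the count of rises was close to that of all genes. In COL BRAFp53 0 rose and 10 fell (9.95% and 7.76% of all genes), and in SI BRAFp53 3 rose and 7 fell of 17 (6.98% and 4.53%). Lactase (Lct) changed by -2.43 in SI BRAFp53. In COL p53 4 of 16 fell, among them Sis (-2.00) and Anpep (-1.38), against 0.142% of all genes called in that arm, and in SI p53 none was called. In off organoids 12 of 16 were higher in SI and 0 in COL (12.6% and 17% of all genes).

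A list of 20 genes of the amino acid response, known as ATF4 targets, was read beside Slc7a11, which is known as one of them. In SI BRAF 8 of 19 tested genes rose and 1 fell (17.5% and 14.2% of all genes), with a median of 0.38 against -0.06 over all genes (without on replicate 1, 6 rose and 3 fell), with Trib3 at 2.13, Ddit3 at 1.98 and Asns, the asparagine synthetase, at 0.68. In SI BRAFp53 6 rose and 2 fell (6.98% and 4.53% of all genes), with Trib3 at 1.22. In COL BRAFp53 8 of 20 rose and 1 fell (9.95% and 7.76% of all genes), with Chac1 at 1.68 and Asns at 0.65. In COL BRAF 2 rose and 4 fell, among the latter Cth (-1.20), an enzyme of cysteine synthesis, although Slc7a11 rose there too. The count of rises there was close to the 10.3% of all genes, and 9.61% of all genes fell. No gene of the list was called in either p53 arm. In off organoids 4 were higher and 4 lower in COL of 19 tested, against 17% and 12.6% of all genes.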

How the data were processed

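RNA-seq counts of 24 libraries were used. Per the labels and the study's methods, the authors trimmed paired-end reads, aligned them to mm10 and deposited raw whole-number counts per Ensembl gene, 1 table per tissue; the submitters' processing notes name Trimmomatic 0.36 and STAR 2.5.2b. The annotation release and the strand setting are not given in the sources used here, so reads of overlapping or antisense genes cannot be told apart, and reads of near-identical copies may be uncertain. No column was left unused.

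Gene identifiers were matched to GENCODE M21 (45143 of 45706), which gave symbols and the exon lengths behind values per kb. Genes passing filterByExpr were tested in R 4.3.3 with edgeR 4.0.16 (TMM scaling, quasi-likelihood test) on all 12 libraries of a tissue, with each genotype and state as a group. Responses were compared between tissues in 1 fit of 24 libraries, and off organoids over 3 against 3 cultures with the off libraries of a culture summed. P-values were adjusted over all genes tested (Benjamini-Hochberg), and 0.05 was the threshold. CPM come from 1 TMM scaling of all libraries, which departs from the within-tissue scaling by at most 0.0376 (log2). Libraries held 44.35 to 78.18 M counts, and 3 counts were taken as the floor, which covers counting error only. The scripts were tested on simulated data.

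Alternatives were other size factors (RLE), DESeq2 1.42.0, limma-voom from limma 3.58.1, no filter on low counts, a minimum of 10 counts per library, the replicate number or, for off organoids, the genotype as a block, a log2 change of at least 1, and leaving out each library or culture. Named genes are 15 carriers known for intestinal absorption or amino acid supply and, per comparison, up to 4 called in each direction with the largest change and an average log2 CPM of at least 0; of other lists at most 3 called genes are named per arm. Members and lists were chosen with earlier results of these data known. Sequences are RefSeq promoters (GRCm38.p6); motifs were searched on both strands.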

Additional observations from a re-analysis of the deposited data

Results flagged for a closer look

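Responses to induction that differed between genotypes or tissues, each by a test of the difference itself (edgeR), are gathered here as log2 differences. No cause was tested.

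BRAFp53 minus BRAF responses in COL differed for 2 transporters, Slc15a1 (-2.68) and Slc6a19 (-3.10), both lost without any of 4 of the 8 libraries. In SI they differed for 20. Among the named ones, absorptive sugar carriers were lower with p53R172H: Slc5a1 (-1.43), Slc2a2 (-1.44), Slc2a5 (-1.24), Slc2a7 (-2.78) and the inositol carrier Slc5a11 (-2.38). So were the peptide and amino acid carriers Slc15a1 (-3.01), Slc6a19 (-1.77), Slc7a15 (-3.06), Slc7a7 (-1.33), Slc7a8 (-1.38) and Slc7a9 (-1.26). Slc1a5 was higher (0.85), a call lost without either of 2 libraries.

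BRAF responses differed between COL and SI for 18 transporters. Among those lower in COL were Slc5a1 (-2.89), Slc2a2 (-2.82), Slc2a5 (-2.40), Slc5a8 (-3.60), Slc6a4 (-3.17), Slc1a1 (-3.03), Slc15a1 (-1.89), Slc7a11 (-2.17), Slc7a8 (-2.43), Slc7a7 (-0.98) and Slc7a15 (-3.37), the last of which was lost with DESeq2, with limma-voom, with the replicate block and without any of 7 of the 8 libraries, and was -1.53 without COL BRAF off replicate 1. Higher in COL were Slc6a19 (1.69) and Slc1a5 (0.61). The calls of Slc2a5 and Slc1a5 were lost without any of 2 and 7 of the 8 libraries. BRAFp53 responses differed between COL and SI for 7 transporters. Among those lower in COL were Slc6a4 (-4.18), Slc1a1 (-2.81), Slc7a11 (-2.77), Slc15a1 (-1.56) and Slc5a1 (-0.93), and Slc5a3 (1.14) was higher. Of these, Slc15a1, Slc5a1 and Slc5a3 were lost without any of 5, 4 and 4 of the 8 libraries, Slc5a3 also with limma-voom, and Slc15a1 was -1.02 without COL BRAFp53 off replicate 1.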

How the results depend on the processing

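Of 123 called results of the named transporters, 0 were reversed, 91 remained called under every alternative that kept all libraries and 84 also without each library in turn. Most losses under the former (27) came from requiring a log2 change of at least 1, and 32 were lost without at least 1 library. Counts of called transporters moved by over 1.5 times as follows, and the cause was not tested. With a log2 change of at least 1, COL BRAF had 12 and COL BRAFp53 had 7. With DESeq2, COL p53 had 10, SI BRAFp53 14, the BRAFp53 minus BRAF comparison in COL 5, and the COL minus SI comparison 7 for p53 and 12 for BRAFp53. With no filter on low counts, where other genes enter the fit, COL p53 had 13, COL BRAFp53 27, SI p53 1, SI BRAFp53 15, BRAFp53 minus BRAF in COL 11, and COL minus SI 13 for p53 and 19 for BRAFp53. Apart from the DESeq2 shares for p53 given above, these counts stand without the share of all genes called. They show only how far the counts depend on the setting.

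Leaving out 1 library gave 16 to 18 calls in COL BRAF, 9 to 14 in COL BRAFp53, 0 to 1 in COL p53, 22 to 29 in SI BRAF, 7 to 10 in SI BRAFp53 and 0 to 0 in SI p53. For BRAFp53 minus BRAF it gave 0 to 3 in COL and 16 to 23 in SI, and for COL minus SI 16 to 18 for BRAF, 0 to 1 for p53 and 4 to 9 for BRAFp53. Leaving out 1 culture gave 19 to 28 in off organoids.

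Replicate numbers did not pair the libraries: deviations of off and on libraries with the same number correlated at -0.0392 to 0.0573 over genes. With a replicate block, the BRAFp53 responses differed between COL and SI for 11 transporters and 4 calls of named transporters were lost. With 2 libraries per group and 1 culture per genotype and tissue, the p-values do not cover variation between mice, and transcripts near the floor have imprecise fold changes.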
